A study of Mus musculus with 31 samples.

Results

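The imprinted Kcnq1-Cdkn1c domain is a group of neighbouring genes on mouse chromosome 7, next to the Igf2-H19 domain. Its members were taken by name, as the rows of the expression tables whose gene symbol is Cdkn1c, Phlda2, Slc22a18, Kcnq1, Kcnq1ot1, Ascl2, Tssc4, Cd81 or Nap1l4. Of these 9 names, 8 had a row among the 38283 genes of each table, and Kcnq1ot1 was not analysed here. RNA was sequenced from sorted pancreatic cells of C57BL/6 mice on postnatal day 2. Cells carrying YFP are the mesenchymal fraction and cells without it the non-mesenchymal fraction. Of 31 samples, 21 had values.

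All animals carried Nkx3.2-Cre, a recombinase driven from a gene of the pancreatic mesenchyme, so the controls carried the Cre as well. In the H19DMD model the mutants were H19DMDfl/+; Nkx3.2+/Cre, which lack the imprinting control region of H19 on 1 allele in Cre-expressing cells and are described by the submitters as overexpressing Igf2. Their littermate controls were H19DMD+/+; Nkx3.2+/Cre. In each cell fraction this model had values for 3 of 4 control libraries and for 4 mutant libraries, and control 4 of each fraction was not analysed here. In the Igf2 model the mutants were Igf2+/fl; Nkx3.2Cre/+ and the controls Igf2+/+; Nkx3.2Cre/+. Here the non-mesenchymal fraction had 4 libraries from controls and 3 from mutants, and its mesenchymal cells were not analysed here. In both models non-mesenchymal cells are named by the genotype of the animal, and whether they carry the recombined allele was not tested. The labels do not say that replicates are separate animals, so p-values measure the spread between these libraries, which may be technical.

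In this domain most protein-coding genes are expressed mainly from the maternal chromosome in at least some tissues. The long non-coding RNA Kcnq1ot1 is transcribed from the paternal chromosome only, starts inside Kcnq1 on the opposite strand, and silences its neighbours on that chromosome. Cdkn1c is the best-known growth restrainer of the domain, and its loss in people is a cause of Beckwith-Wiedemann syndrome, an overgrowth disorder that can include the pancreas. The values here sum both alleles and carry no allelic information.

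In the GRCm38 assembly the members run along chromosome 7 in the order Ascl2, Cd81, Tssc4, Kcnq1, Cdkn1c, Slc22a18, Phlda2 and Nap1l4. Kcnq1 (ENSMUSG00000009545, chr7:143106362-143427042, plus strand) contains the whole of Kcnq1ot1 (chr7:143203458-143296549, minus strand). Cdkn1c (ENSMUSG00000037664, chr7:143458339-143461050, minus strand) starts 164.5 kb from the start of Kcnq1ot1. Slc22a18 (ENSMUSG00000000154, chr7:143473736-143499334) is on the plus strand, and Phlda2 (ENSMUSG00000010760, chr7:143501545-143503150) and Nap1l4 (ENSMUSG00000059119, chr7:143513579-143549106) are on the minus strand. On the side towards H19, Ascl2 (ENSMUSG00000009248, chr7:142966829-142969264) is on the minus strand, and Cd81 (ENSMUSG00000037706, chr7:143052739-143067934) and Tssc4 (ENSMUSG00000045752, chr7:143069249-143071093) are on the plus strand. Igf2 starts 629.7 kb from the start of Kcnq1ot1.

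Of the 9 members, 6 matched the promoters used, and 4 of these are printed from RefSeq (GRCm38.p6), from 250 bases before to 50 bases after the RefSeq start, 5′ to 3′ on the strand of the gene. Kcnq1ot1 is shown because its promoter lies in the imprinting control region of the domain. The others are shown for their levels in mesenchymal cells, where Slc22a18 was lower than in non-mesenchymal cells, Phlda2 was listed at 0, and Cd81 was the most abundant member. For Kcnq1ot1 (chr7:143296498-143296797, minus strand) the capitals mark CCAAT, the letters bound by the factor NF-Y. For Slc22a18 (chr7:143473539-143473838, plus strand), Phlda2 (chr7:143502475-143502774, minus strand) and Cd81 (chr7:143052500-143052799, plus strand) the capitals mark CG, the dinucleotide at which mammalian DNA is methylated.
Kcnq1ot1: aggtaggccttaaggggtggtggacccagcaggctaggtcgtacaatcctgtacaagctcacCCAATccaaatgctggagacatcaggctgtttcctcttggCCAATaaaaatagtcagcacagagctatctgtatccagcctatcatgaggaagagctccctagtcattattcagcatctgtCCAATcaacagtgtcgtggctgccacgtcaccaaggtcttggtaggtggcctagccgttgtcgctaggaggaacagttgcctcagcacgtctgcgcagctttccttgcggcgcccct
Slc22a18: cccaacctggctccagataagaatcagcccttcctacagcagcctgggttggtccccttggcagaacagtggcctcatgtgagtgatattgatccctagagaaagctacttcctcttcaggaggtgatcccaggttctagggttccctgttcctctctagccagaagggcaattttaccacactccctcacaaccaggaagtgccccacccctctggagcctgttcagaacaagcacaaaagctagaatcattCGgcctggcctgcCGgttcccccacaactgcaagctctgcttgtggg
Phlda2: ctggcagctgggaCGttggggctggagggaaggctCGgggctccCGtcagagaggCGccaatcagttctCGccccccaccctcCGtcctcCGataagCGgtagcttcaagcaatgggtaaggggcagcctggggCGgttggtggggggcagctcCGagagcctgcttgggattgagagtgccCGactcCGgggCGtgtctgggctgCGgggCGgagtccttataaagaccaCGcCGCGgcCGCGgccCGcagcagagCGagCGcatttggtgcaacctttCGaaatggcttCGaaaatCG
Cd81: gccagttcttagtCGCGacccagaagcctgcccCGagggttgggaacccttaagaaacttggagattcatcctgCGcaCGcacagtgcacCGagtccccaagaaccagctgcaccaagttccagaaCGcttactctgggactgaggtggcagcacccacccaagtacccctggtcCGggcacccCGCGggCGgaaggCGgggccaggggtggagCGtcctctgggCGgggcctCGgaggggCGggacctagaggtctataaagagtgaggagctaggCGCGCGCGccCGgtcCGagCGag
The Kcnq1ot1 window held CCAAT 3 times on either strand, and 37.4% of the 32851 promoters of the same length held it at least once. Ascl2 also held it 3 times, Phlda2 and Tssc4 1 time each, and Slc22a18 and Cd81 not at all. By CG content the members fell apart: 26 CG in the promoter of Phlda2 and 23 in each of Ascl2, Tssc4 and Cd81, but 9 in that of Kcnq1ot1 and 2 in that of Slc22a18, beside a median of 7 over all promoters. GGGCGG was found 3 times in Cd81, 2 times in Phlda2 and 1 time in Ascl2, on either strand, and 35.7% of all promoters held it. Both Phlda2, at 0 in all mesenchymal libraries, and Cd81, the most abundant member, also held TATAAA 1 time, as did 13.6% of all promoters. These are matches of letters in the reference and not measurements of binding or methylation. Cdkn1c, Kcnq1 and Nap1l4 were not among the promoters used.

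Values are FPKM, the fragments assigned to a gene scaled by the length of its transcript and by the fragments mapped in the library. Levels of different genes are thus on a common scale, but the part of amplification and annotation in their order was not tested. Absolute depth is unknown. Relative depth spanned 2.23-fold over the libraries of the H19DMD table and 2.2-fold over those of the Igf2 table, and 17476 to 20918 genes were above 0 in a library. The 3 most abundant features held 38.2 to 58.2% of all FPKM in the H19DMD table and 60.5 to 82.5% in the Igf2 table. Each table was normalised on its own and holds 1 model, so tests stayed within a table, and a difference between models cannot be told apart from one between tables. Of 12 mesenchymal markers, 11 were at or above 1 FPKM in all 7 mesenchymal libraries, and their summed level was 5769 to 7442 FPKM there and 164 to 296 FPKM in the non-mesenchymal libraries of the same model. H19, next to the deleted region, served as a check of the labels. In mesenchymal cells it had a mean of 700 FPKM in mutants and 2446 FPKM in controls (log2 difference −1.82 ± 0.19 SE, limma adjusted p = 0.0458). That adjusted p was 0.0230 to 0.849 over 13 other settings and missed 0.05 in 10 of them, with the groups apart in every library. Igf2 was at 6162 to 7923 FPKM in mesenchymal mutants and 3648 to 4024 FPKM in controls, without overlap, but was not called (log2 difference 0.87 ± 0.21 SE, limma adjusted p = 0.927, exact permutation p = 0.0286, the smallest possible).

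**Figure D1:**
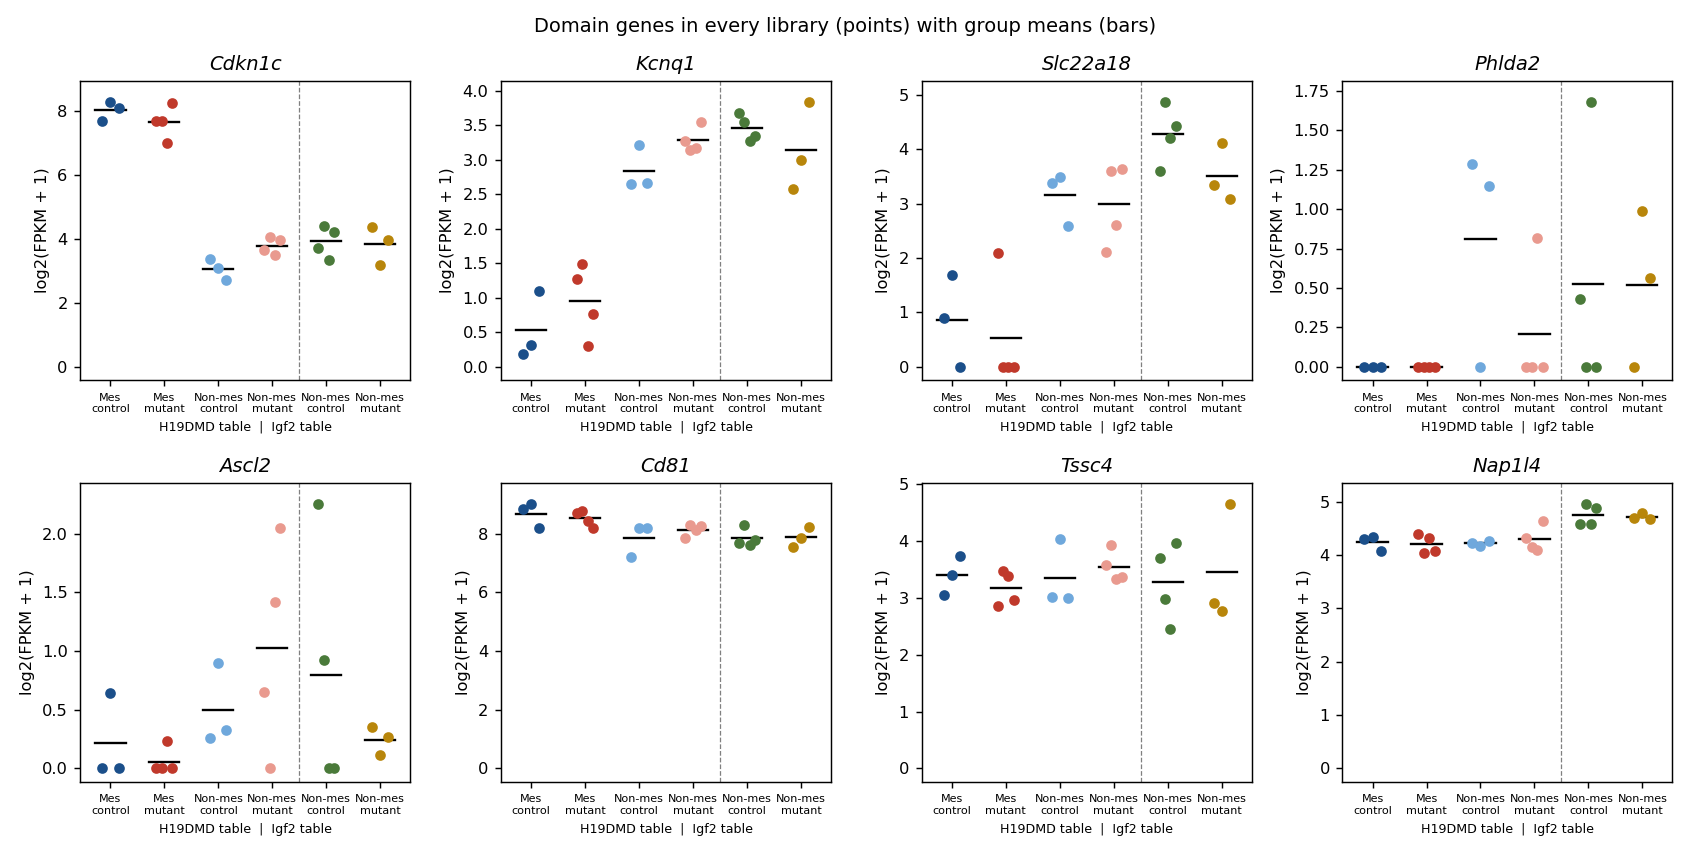
Level of the 8 domain genes in each of 21 libraries, as log2(FPKM + 1), by group (points, 1 per library; bars, group means); libraries left of the dashed line belong to the H19DMD table and those right of it to the Igf2 table, which were normalised separately. Cdkn1c stands high in mesenchymal cells (Mes), Kcnq1 and Slc22a18 stand high in non-mesenchymal cells (Non-mes), and the libraries of Cd81, Tssc4 and Nap1l4 overlap between the fractions.

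Cdkn1c, which encodes the cyclin-dependent kinase inhibitor p57, was strongly higher in mesenchymal cells. In control animals its level was 205, 311 and 276 FPKM in the 3 mesenchymal libraries and 9.37, 7.52 and 5.57 FPKM in the 3 non-mesenchymal libraries. Every mesenchymal library was far above every non-mesenchymal one. The means were 264 ± 54.3 FPKM and 7.49 ± 1.90 FPKM (SD, n = 3 each), a ratio of 35.2, and the difference on the log2(FPKM + 1) scale was 4.97 ± 0.25 (SE, limma adjusted p = 0.000148). In mutant animals the mesenchymal libraries held 208, 209, 128 and 309 FPKM and the non-mesenchymal ones 11.7, 15.6, 10.4 and 14.6 FPKM. The fractions were again apart in all libraries, with a log2 difference of 3.88 ± 0.27 (SE, limma adjusted p = 2.23e-05). The call held in all 12 other settings for controls and all 14 for mutants. In such bulk samples fewer cells of a type and less RNA per cell cannot be told apart.

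Kcnq1, the pore-forming subunit of a voltage-gated potassium channel found in secretory epithelia and heart, had the opposite pattern. In controls its level was 0.137, 0.241 and 1.13 FPKM in mesenchymal cells and 5.27, 8.29 and 5.34 FPKM in non-mesenchymal cells. In mutants it was 1.41, 1.8, 0.233 and 0.704 FPKM in mesenchymal cells and 8.62, 7.80, 8.0 and 10.7 FPKM in non-mesenchymal cells. The fractions did not overlap in either genotype. The log2 difference was −2.31 ± 0.35 in controls and −2.32 ± 0.29 in mutants (SE, limma adjusted p = 0.00569 and 0.000501). These sizes depend on the pseudocount, and with 0.1 in place of 1 the difference in controls was −3.75.

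Slc22a18, a member of the organic cation transporter family, was also lower in mesenchymal cells. In controls it was at 0.867, 2.24 and 0 FPKM in mesenchymal cells and 9.37, 10.3 and 5.02 FPKM in non-mesenchymal cells. In mutants it was listed at 0 in 3 mesenchymal libraries and at 3.24 FPKM in the fourth, and at 3.34, 11.1, 5.07 and 11.5 FPKM in non-mesenchymal cells. The fractions did not overlap, although the highest mesenchymal mutant lay just under the lowest non-mesenchymal one. The log2 difference was −2.29 ± 0.50 in controls and −2.47 ± 0.58 in mutants (SE, limma adjusted p = 0.0227 and 0.0140). The call in controls was lost without mesenchymal control 1 (adjusted p = 0.0658), without non-mesenchymal control 1 (0.0742), without non-mesenchymal control 2 (0.0824) and with a pseudocount of 0.1 (0.0713), and the adjusted p ranged from 0.00781 to 0.0824 over 12 settings. In mutants a fit with the replicate number as a block gave an adjusted p of 0.0581. The pseudocount of 0.1 gave differences of −3.71 in controls and −4.85 in mutants.

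These calls are read against a large background. Of the 8 members, 6 passed the filter of a mean of 1 FPKM in the fraction comparisons, and 1 was called higher and 2 lower in mesenchymal cells in each genotype. Among all genes tested, 22.6% were called in controls (12.4% higher, 10.3% lower) and 28.6% in mutants (13.5% higher, 15.1% lower). Kcnq1 in controls and Slc22a18 in mutants had a mean under 1 FPKM in mesenchymal cells and passed the filter through their level in non-mesenchymal cells. Groups were free of overlap for the same 3 members, as for 39.9% of all genes tested in controls (22.4% higher, 17.4% lower) and 31% in mutants (14.4% higher, 16.6% lower). A two-sided exact permutation test on each member could not go below 0.1 with 3 against 3 libraries and gave that value for Cdkn1c, Kcnq1 and Slc22a18 in controls. In mutants it gave 0.0286 for each of them, the smallest value 4 against 4 libraries allow. Such exact tests were run 60 times on the deposited values, for the 8 members and 4 other genes (Igf2, H19, Trpm5 and R74862) in 5 comparisons, and 40 times for the members after median-ratio scaling.

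Cd81, Tssc4 and Nap1l4 were expressed in both fractions, and none passed the test between them. Cd81 encodes a tetraspanin of the cell surface. It was at 458, 515 and 288 FPKM in mesenchymal and 147, 291 and 288 FPKM in non-mesenchymal control libraries. The groups overlapped at their edges, and the log2 difference was 0.82 (95% interval −0.08 to 1.71, limma adjusted p = 0.176), or 0.49 without non-mesenchymal control 1. In mutants the difference was 0.39 (−0.01 to 0.80, limma adjusted p = 0.139), and 3 of 4 mesenchymal libraries lay above all non-mesenchymal ones.

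Nap1l4, a histone chaperone of the nucleosome assembly family, was at 15.4 to 19.9 FPKM in the 7 mesenchymal libraries and 16.2 to 23.9 FPKM in the 7 non-mesenchymal libraries of the H19DMD table. Its log2 difference between fractions was 0.02 in controls (95% interval −0.37 to 0.41) and −0.09 in mutants (−0.49 to 0.31). Tssc4, which takes part in assembly of the splicing machinery, was at 6.29 to 12.4 FPKM in mesenchymal and 6.98 to 15.4 FPKM in non-mesenchymal libraries. Its log2 difference was 0.05 in controls (−0.82 to 0.93) and −0.37 in mutants (−0.87 to 0.12). The sign of both genes' small difference in controls turned with median-ratio scaling of the libraries, to −0.10 for Nap1l4 and −0.06 for Tssc4.

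Phlda2 and Ascl2, 2 members best known from the placenta, were near the bottom of the scale and passed the filter in no comparison. Phlda2, a small pleckstrin homology protein that limits placental growth, was listed at 0 in all 7 mesenchymal libraries. In non-mesenchymal cells it was at 1.44, 0 and 1.21 FPKM in the controls and at 0, 0, 0.765 and 0 FPKM in the mutants of the H19DMD model. Ascl2, a basic helix-loop-helix factor of trophoblast and intestinal stem cells, was at 0, 0.558 and 0 FPKM in mesenchymal controls and at 0, 0, 0.178 and 0 FPKM in mesenchymal mutants. In non-mesenchymal cells it was at 0.198, 0.865 and 0.257 FPKM in controls and 0.574, 0, 1.67 and 3.13 FPKM in mutants. The groups of both genes overlapped in every comparison.

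**Figure D2:**
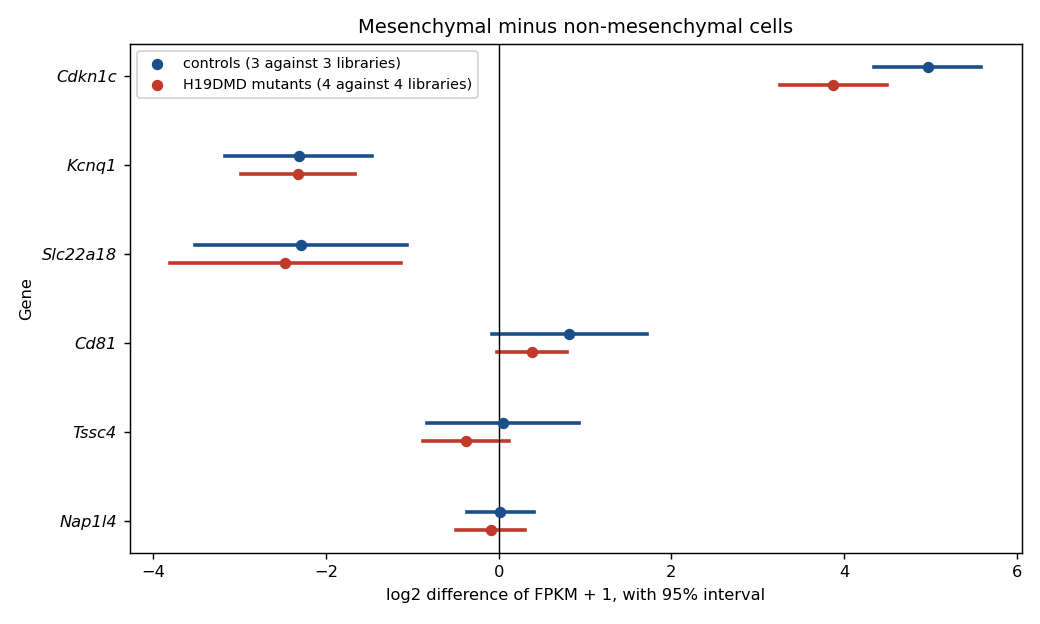
Mesenchymal minus non-mesenchymal level of the 6 domain genes that passed the filter, as a log2 difference of FPKM + 1 (points) with its 95% interval (lines), in controls and in H19DMD mutants. Cdkn1c lies at 4.97 and 3.88, Kcnq1 and Slc22a18 lie below −2 in both genotypes, and the intervals of Cd81, Tssc4 and Nap1l4 include 0.

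The order of the members by level differed between fractions. Cd81 led in all 6 groups. In mesenchymal controls Cdkn1c followed with 264 FPKM, its libraries overlapping those of Cd81, and stood 14.7-fold above Nap1l4, the third. Next came Tssc4 with 9.79 FPKM, below Nap1l4 in every library, and then Slc22a18, Kcnq1, Ascl2 and Phlda2, neighbours whose libraries overlapped. In non-mesenchymal controls of the same model Nap1l4 was second with 17.7 FPKM, and Tssc4, Slc22a18, Cdkn1c and Kcnq1 formed a group from 9.83 to 6.30 FPKM in which each overlapped the next. In non-mesenchymal controls of the Igf2 model the members below Cd81 ran from Nap1l4 at 26.1 FPKM over Slc22a18, Cdkn1c and Kcnq1 to Tssc4 at 9.58 FPKM, each overlapping the next.

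Along the chromosome, calls in opposite directions were found side by side. Cdkn1c and Slc22a18, which start 164.5 and 177.2 kb from the start of Kcnq1ot1 on the same side, differed between fractions by 4.97 and −2.29 on the log2 scale in controls. Of 10 neighbouring genes that lie between or beside the members, 9 were tested. Of these, 3 were called higher and 1 lower in mesenchymal control cells, as were 12.4% and 10.3% of all genes tested. The higher ones were Trpm5, a cation channel best known from taste cells (2.65 ± 0.39), Osbpl5, an oxysterol-binding protein family member (1.93 ± 0.32), and Cars, the cysteinyl-tRNA synthetase (1.51 ± 0.26), as log2 difference with SE. The lower one was Tspan32, a tetraspanin of blood cells (−2.31 ± 0.46). In mutants Trpm5 (3.54) and Osbpl5 (1.37) were called higher and Tspan32 (−1.35) and Th, the tyrosine hydroxylase gene, lower, while Cars was at −0.12. Th was listed at 0 in all 4 mesenchymal mutants, with a mean of 3.30 FPKM in the non-mesenchymal ones. Tspan32 had a mean of 0.592 FPKM in mesenchymal controls and 0.870 FPKM in mesenchymal mutants, so that both genes passed the filter through their level in non-mesenchymal cells. The call of Tspan32 was lost in 5 of 12 other settings in controls (adjusted p up to 0.0634), with a replicate block and without mesenchymal control 2 or 3 or non-mesenchymal control 2 or 3. In mutants it was lost in 9 of 14 (up to 0.0986), without a filter, with a block, without any 1 of the mesenchymal mutants, and without non-mesenchymal mutant 1, 3 or 4. The other neighbours named kept their calls in every setting. With a pseudocount of 0.1 Tspan32 was at −4.51 in controls and −2.09 in mutants. The difference of Th in mutants ranged from −4.87 to −1.69 over the 14 other settings. Dhcr7, a cholesterol synthesis enzyme, was at −0.17 in controls and 0.14 in mutants and was not called. The median over the 9 neighbours was 0.40 in controls and 0.14 in mutants, beside 0.08 and −0.03 over all genes tested.

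**Figure D3:**
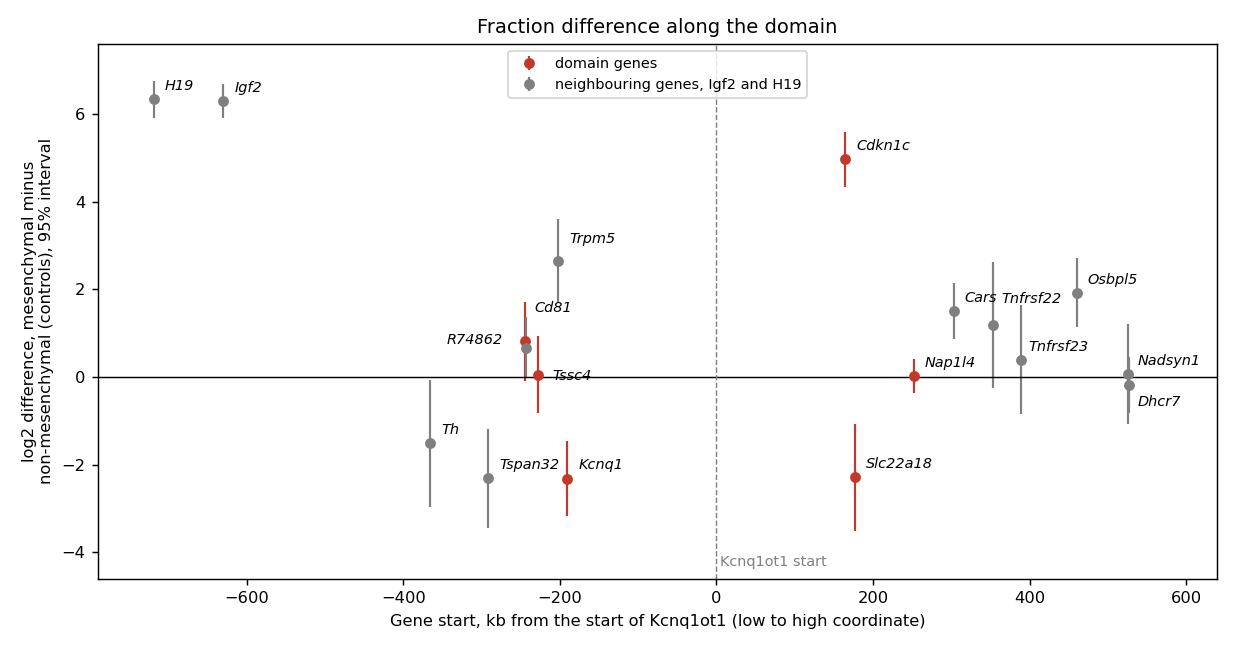
Mesenchymal minus non-mesenchymal log2 difference in controls (points, with 95% interval) against the distance of each gene's start from the start of Kcnq1ot1 in kb, for the tested domain genes, the tested neighbouring genes, Igf2 and H19. Cdkn1c at 164.5 kb and Slc22a18 at 177.2 kb lie on opposite sides of 0, and Igf2 and H19 lie above 6.

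Some members share exonic bases with a gene on the other strand, and whether counting used strand is not given in the sources used here. Of the 1845 exonic bases of Tssc4, 220 (11.9%) are also exonic in Trpm5. Of the 2879 of Cd81, 104 (3.61%) are exonic in R74862, and of the 4093 of Kcnq1, 121 (2.96%) are exonic in Kcnq1ot1. Cdkn1c shares 625 of 2039 exonic bases (30.7%) with the gene model Gm44732, which was not analysed here. Reads shared with Trpm5 or R74862 could have been assigned to either gene of the pair. Gm44732 and Kcnq1ot1 had no values, so a split of reads with Cdkn1c or Kcnq1 cannot be seen. The values of the members carry that uncertainty.

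In the fraction comparison, markers of other cell types moved with the groups. Summed levels of 10 acinar markers were 546 to 1752 FPKM in mesenchymal and 38255 to 102681 FPKM in non-mesenchymal libraries of the H19DMD model, and those of 10 endocrine markers were 34.4 to 226 and 11056 to 29828 FPKM. The 7 ductal markers (23.9 to 86.1 and 883 to 1671 FPKM), 6 leukocyte markers (17.0 to 68.2 and 255 to 487 FPKM), 4 erythroid markers (9.66 to 20.9 and 23.1 to 327 FPKM) and 6 neural and glial markers (4.02 to 10.5 and 22.2 to 59.7 FPKM) were likewise lower in mesenchymal libraries without overlap. Summed levels of 2 other lists were higher in mesenchymal libraries, as Cdkn1c was. The 5 mesothelial markers summed to 100.1 to 331 FPKM in mesenchymal and 37.7 to 74.9 FPKM in non-mesenchymal libraries, and the 8 endothelial markers to 75.3 to 130 and 17.8 to 44.4 FPKM. Of the mesothelial markers 4 were called higher in each genotype and 1 lower in mutants, and of the endothelial ones 3 were called higher in controls and 4 in mutants, with none lower. The mesothelial and ductal lists share Krt19. Amy2a5 and Ptf1a were at 0 in all mesenchymal libraries. In the other direction, Nkx3-2 was at 0 in all non-mesenchymal libraries of this model, while 8 of the 12 mesenchymal markers were at or above 1 FPKM in every one of them. Set against those markers, Cdkn1c had 30.9 to 43.4 FPKM per 1000 FPKM of summed mesenchymal markers in mesenchymal controls and 32.8 to 46.7 in non-mesenchymal controls, ranges that overlap. In mutants the same ratio was 21.4 to 53.6 in mesenchymal and 52.8 to 63.6 in non-mesenchymal libraries, ranges that meet only at their edges. The part of mesenchymal cells or of their RNA in the non-mesenchymal level of Cdkn1c was not tested.

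**Figure D4:**
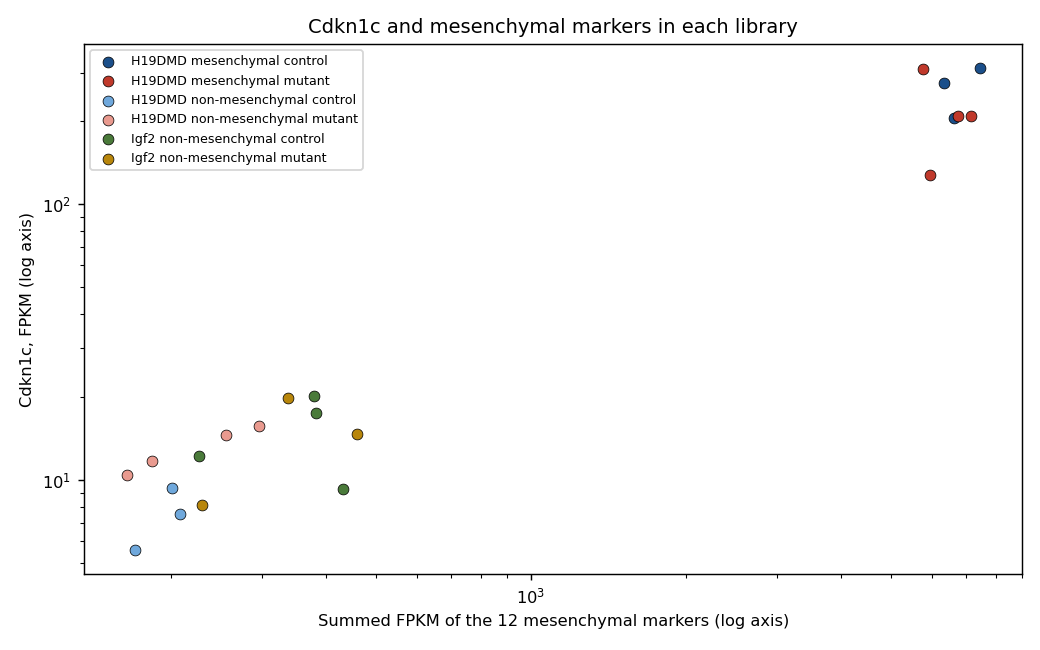
Cdkn1c level against the summed level of the 12 mesenchymal markers in each of 21 libraries (both in FPKM, both axes logarithmic; 1 point per library, coloured by group). Mesenchymal libraries lie at 128 to 311 FPKM of Cdkn1c and at or above 5769 FPKM of markers, and the 4 non-mesenchymal H19DMD mutants lie above the 3 controls in Cdkn1c.

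The comparison of H19DMD mutant with control mesenchymal cells asks whether loss of the H19 control region goes with a change in the adjacent imprinted domain. No member was called. Of the 8, 4 passed the filter, and the share of all genes called was 0.0694% (755 of 15856 genes, 4.76%, at an unadjusted p under 0.05, none of them a member). Cdkn1c, with the values given above, had means of 213 ± 74.3 FPKM in 4 mutants and 264 ± 54.3 FPKM in 3 controls (SD). The lowest mutant, at 128 FPKM, lay below all controls, and the other 3 lay within their range. The log2 difference was −0.35 ± 0.31 (SE, 95% interval −1.09 to 0.39, limma adjusted p = 0.927, exact permutation p = 0.429). It was −0.13 without mutant 3, −0.22 without control 2 and −0.55 without mutant 4. The difference was −0.15 (−0.76 to 0.46) for Cd81, −0.23 (−0.83 to 0.37) for Tssc4 and −0.04 (−0.44 to 0.37) for Nap1l4, the last of which turned to 0.04 with median-ratio scaling. No member was free of overlap between genotypes, as 5.39% of all genes were.

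Kcnq1 and Slc22a18 were below the filter in this comparison. Kcnq1 was higher than all controls in 2 of 4 mutants, and the exact permutation p was 0.343. Slc22a18 was above 0 in 1 mutant and 2 controls (exact permutation p = 0.657). Trpm5, the neighbour whose exons overlap Tssc4, was at 19.6, 21.4, 19.8 and 30.5 FPKM in mutants and 19.1, 10.1 and 19.1 FPKM in controls. All mutants lay above all controls, by a margin as small as the gap from 19.1 to 19.6 FPKM. Its log2 difference was 0.51 ± 0.28 (SE, limma adjusted p = 0.927), with an exact permutation p of 0.0286, the smallest possible. Control 2, at 10.1 FPKM, lay far below the other controls and enlarges this difference.

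Beside these values, the summed mesenchymal markers were 5769 to 7164 FPKM in mesenchymal mutants and 6351 to 7442 FPKM in mesenchymal controls. The 7 ductal markers summed to 23.9 to 38.3 FPKM in mutants and 38.6 to 86.1 FPKM in controls, without overlap. The 5 mesothelial markers summed to 100.1 to 151 and 149 to 331 FPKM, with a median log2 difference of −1.31. No gene of these lists was called, and their part in the members' levels was not tested.

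**Figure D5:**
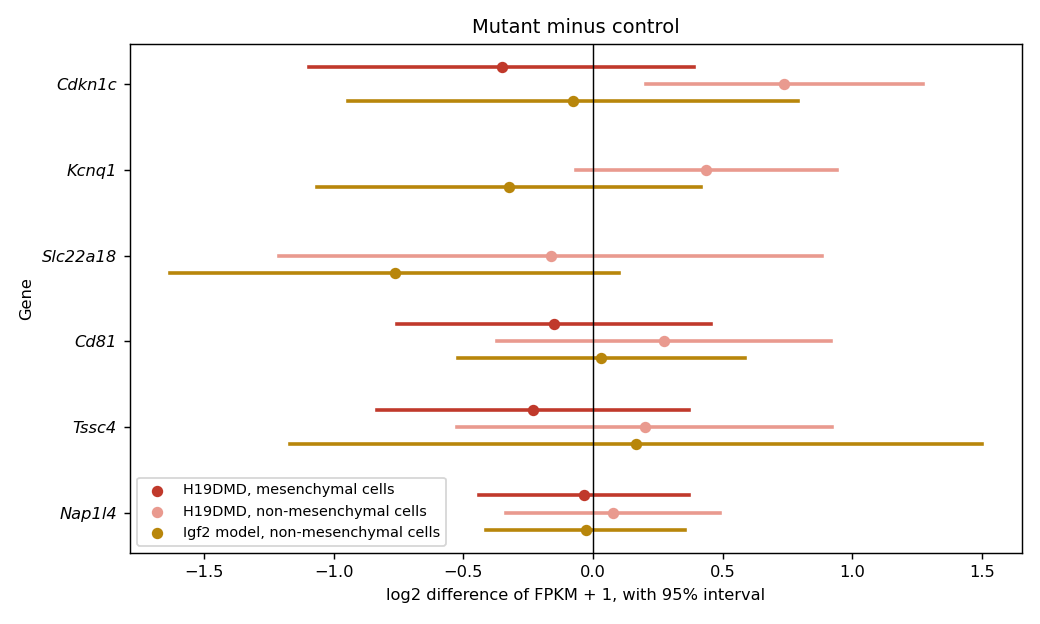
Mutant minus control level of the domain genes that passed the filter in 3 comparisons, as a log2 difference of FPKM + 1 (points) with its 95% interval (lines). The interval of Cdkn1c in non-mesenchymal cells of the H19DMD model, 0.20 to 1.27, is the only one drawn that leaves out 0, and its adjusted p was 0.892.

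In non-mesenchymal cells of the H19DMD model Cdkn1c was higher in every mutant library than in any control, without passing the test across genes. Its level was 11.7, 15.6, 10.4 and 14.6 FPKM in mutants and 9.37, 7.52 and 5.57 FPKM in controls. The means were 13.1 ± 2.44 (SD, n = 4) and 7.49 ± 1.90 FPKM (SD, n = 3), a ratio of 1.75. The log2 difference was 0.74 ± 0.23 (SE, 95% interval 0.20 to 1.27), with an exact permutation p of 0.0286, the smallest possible, and a limma adjusted p of 0.892. It was the only one of the 8 members without overlap, and 3.47% of all genes tested were likewise higher without overlap, 5.68% in either direction. With median-ratio scaling the groups overlapped, at 10.4 to 14.5 FPKM in mutants and 5.23 to 10.7 FPKM in controls (exact permutation p = 0.0571).

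Markers and Igf2 were read in the same libraries, and limma called no gene of the 9 marker lists between genotypes. The summed mesenchymal markers were 164 to 296 FPKM in mutants and 170 to 208 FPKM in controls, with 8 of 12 markers at or above 1 FPKM in every library of both groups. Nkx3-2 was at 0 in both groups and Barx1 in the controls. Per 1000 FPKM of these markers Cdkn1c was at 52.8 to 63.6 FPKM in mutants and 32.8 to 46.7 FPKM in controls, so that the groups stayed apart. That ratio also varied widely within the non-mesenchymal groups of the Igf2 model, at 21.4 to 54.1 in controls and 31.9 to 58.9 in mutants. In the H19DMD model Igf2 was at 88.5, 157, 45.4 and 141 FPKM in mutants and 53.2, 45.2 and 46.2 FPKM in controls. The summed erythroid markers were 46.9 to 327 FPKM in mutants and 23.1 to 94.2 FPKM in controls, and the endocrine ones 11056 to 20362 and 19693 to 29828 FPKM. These ranges overlap. The 5 mesothelial markers summed to 53.451 to 74.9 FPKM in mutants and 37.7 to 53.447 FPKM in controls, so that the groups all but touched, with 1 of the 5 at or above 1 FPKM in every library. By single markers, the mutant minus control difference was above 0 for all 4 erythroid markers tested (median 1.59), 7 of 8 mesenchymal (0.25) and 7 of 7 ductal ones (0.33). It was above 0 for 0 of 8 acinar (−0.28), 1 of 10 endocrine (−0.29), 2 of 7 endothelial (−0.14), 3 of 6 leukocyte (−0.23) and 2 of 6 neural and glial markers (−0.13). Their part in the level of Cdkn1c was not tested.

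No member was called in this comparison either. Of the 8, 6 passed the filter, the share of all genes called was 0.0677%, and 868 of 16239 genes (5.35%), Cdkn1c among them, had an unadjusted p under 0.05. Kcnq1 was higher than all controls in 2 of 4 mutants, with a log2 difference of 0.44 (95% interval −0.06 to 0.94, limma adjusted p = 0.894, exact permutation p = 0.114). The differences of the other members were 0.27 (−0.37 to 0.92) for Cd81, 0.20 (−0.52 to 0.92) for Tssc4, 0.08 (−0.33 to 0.49) for Nap1l4 and −0.16 (−1.21 to 0.88) for Slc22a18. Their groups overlapped.

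The mutant minus control difference of Cdkn1c was −0.35 in mesenchymal and 0.74 in non-mesenchymal cells of the H19DMD model, neither of them called, and the contrast between these values was tested directly. It was −1.09 ± 0.39 (SE, 95% interval −1.95 to −0.24), with an unadjusted limma p of 0.0167 and an adjusted p of 0.755. No member passed this interaction test, in which 0.0117% of all genes were called and 1087 of 17105 genes (6.35%) had an unadjusted p under 0.05. The median of all genes was itself shifted by −0.11 in this test and by −0.00481 with median-ratio scaling. For Kcnq1 the interaction was −0.01 ± 0.44 and for Slc22a18 −0.18 ± 0.84 (SE), and both changed sign in some settings.

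In the Igf2 model the YFP-negative non-mesenchymal cells were compared. No member was called among 6 tested, where the share of all genes called was 0.0631%. Of 17441 genes, 921 (5.28%) had an unadjusted p under 0.05, none of them a member. Slc22a18 showed the largest difference of the tested members. It was at 9.11, 16.4 and 7.50 FPKM in mutants and 11.1, 28.2, 17.5 and 20.6 FPKM in controls. In 2 of 3 mutants it was below all controls, and the groups overlapped. The log2 difference was −0.76 ± 0.37 (SE, 95% interval −1.63 to 0.10, limma adjusted p = 0.919, exact permutation p = 0.143).

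Cdkn1c did not show in this model the separation seen between genotypes in the H19DMD table. It was at 19.9, 8.14 and 14.7 FPKM in mutants and 12.3, 20.2, 9.24 and 17.5 FPKM in controls. The groups overlapped over nearly their whole range, with a log2 difference of −0.08 (95% interval −0.94 to 0.79) that turned to 0.02 with a replicate block. The differences in the 2 models were not tested against each other, since the tables were normalised separately. Kcnq1 was at 4.97, 6.96 and 13.3 FPKM in mutants and 11.8, 10.7, 8.63 and 9.10 FPKM in controls, a log2 difference of −0.32 (−1.06 to 0.42) that was −0.67 without mutant 3 and −0.045 without mutant 1. The mutants lay on both sides of the controls.

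Cd81 (0.03, 95% interval −0.52 to 0.59), Tssc4 (0.17, −1.17 to 1.50) and Nap1l4 (−0.03, −0.41 to 0.35) overlapped between genotypes of the Igf2 model as well, on the log2 scale. Tssc4 in mutants was 24.2 FPKM in 1 library and 6.55 and 5.85 FPKM in the others. Phlda2 was at 0, 0.986 and 0.481 FPKM in mutants and 0.347, 0, 2.2 and 0 FPKM in controls. Ascl2 was at 0.281, 0.0845 and 0.202 FPKM in mutants and 3.77, 0.902, 0 and 0 FPKM in controls. No member was free of overlap, as 6.02% of all genes tested were. Beside these values, the summed acinar markers were 84694 to 96605 FPKM in mutants and 28726 to 41669 FPKM in controls, with Amy2a5 at 0 in the controls, and 7 of 10 markers in controls and 9 of 10 in mutants were at or above 1 FPKM in every library. Their part in the members' levels was not tested.

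Genes with functions close to those of the members were described from fixed lists. Of 14 inhibitors, kinases and cyclins of the G1 phase of the cell cycle, 13 were tested between fractions in controls. Of these, 2 were called higher and 3 lower in mesenchymal cells, beside the same 12.4% and 10.3% (median 0.17 on the log2 scale). Cdkn1a and Cdkn1b, which encode p21 and p27, the relatives of the Cdkn1c product, were on the other side from Cdkn1c. Cdkn1a was at 8.39 to 21.5 FPKM in mesenchymal and 49.7 to 107 FPKM in non-mesenchymal controls (−2.48 ± 0.43 SE, limma adjusted p = 0.00937). Cdkn1b was at 5.19 to 7.80 and 11.1 to 14.6 FPKM (−0.89 ± 0.22 SE, limma adjusted p = 0.0333). In both genes the fractions were apart in every control library.

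The other calls of this list in controls were Cdkn2b, an inhibitor of CDK4 and CDK6 (1.82, or 4.14 with a pseudocount of 0.1), which passed the filter through its mean of 3.02 FPKM in mesenchymal controls and had 0.132 FPKM in non-mesenchymal ones, and the D cyclins Ccnd3 (1.97) and Ccnd1 (−2.24), as log2 differences. In mutants, of 12 tested, Ccnd3 (1.97) and Ccnd2 (0.54) were called higher and Cdkn1a (−3.11) and Ccnd1 (−2.16) lower. Beside them, 13.5% of all genes tested were called higher and 15.1% lower. The list's median in mutants was 0.06, and Cdkn1b was at −0.14. Cdk4, which had the highest mean of the list over the H19DMD table, was at 0.20 in controls and −0.33 in mutants and was not called. With the replicate number as a block, Cdkn1a (adjusted p = 0.0510), Cdkn1b (0.0983) and Cdkn2b (0.0584) were not called in controls. Cdkn1b also lost its call without mesenchymal control 1, 2 or 3 or non-mesenchymal control 2 or 3, 6 of 12 settings in all (adjusted p up to 0.106). In mutants Ccnd2 lost its call in 8 of 14 settings (up to 0.0966), with median-ratio scaling, with no variance trend, and without mesenchymal mutant 1, 2 or 4 or non-mesenchymal mutant 2, 3 or 4. Ccnd1 and Ccnd3 kept their calls in all settings of both genotypes.

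The 18 listed genes of chromatin and DNA methylation that are known from imprinting were all tested between fractions, and 3 were called in each genotype, beside the 22.6% and 28.6% of all genes called in controls and mutants. In controls Ehmt1, a histone H3 lysine methyltransferase (0.88), and Zfp57, a zinc finger protein that protects imprints (2.61), were called higher and Cbx7, a Polycomb protein (−2.01), lower. In mutants Zfp57 (2.40) was called higher and Cbx7 (−1.86) and Dnmt1, the maintenance methyltransferase (−0.70), lower. The genes with the highest means over the H19DMD table were Hnrnpk, an RNA-binding protein that takes part in silencing by long non-coding RNAs (−0.16 in controls, −0.20 in mutants), Trim28 (0.07, 0.12) and Dnmt3a (0.43, −0.22), none of them called. The list's median was 0.08 in controls and −0.06 in mutants. Several of these calls did not hold in other settings. In controls Zfp57 lost its call in 8 of 12 (adjusted p up to 0.121), namely with a pseudocount of 0.1, without a filter, with median-ratio scaling, with a replicate block, and without mesenchymal control 1, 2 or 3 or non-mesenchymal control 3. Ehmt1 lost it in 6 of 12 (up to 0.0815), with that scaling or block and without mesenchymal control 2 or 3 or non-mesenchymal control 2 or 3, and Cbx7 in 2, without non-mesenchymal control 1 or 2 (up to 0.0553). In mutants Dnmt1 lost its call in 5 of 14 (up to 0.0854), without mesenchymal mutant 2 or 4 or non-mesenchymal mutant 1, 2 or 4, while Zfp57 and Cbx7 kept theirs in all 14.

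Of 12 imprinted genes at other loci, 9 were called higher in mesenchymal control cells and none lower, beside 12.4% of all genes called higher and 10.3% lower. They were Plagl1 (5.17), Dlk1 (4.92), Mest (4.75), Ndn (2.92), Sgce (2.29), Meg3 (2.2), Igf2r (2.02), Peg3 (1.32) and Grb10 (1.02), as log2 differences, with a list median of 2.11. In mutants the 9 were called again, together with Peg10 (1.62) and Gnas (0.70), beside 13.5% of all genes called higher, and the median was 1.78. The difference of Cdkn1c, 4.97 in controls, lay between those of Plagl1 and Dlk1. Plagl1, a zinc finger factor, was at 385 to 510 FPKM in mesenchymal and 9.07 to 15.5 FPKM in non-mesenchymal controls. Kcnq1 and Slc22a18 thus went the other way from all 12 genes, whose differences were above 0. Between genotypes none of the genes on these 4 lists was called in any of the 3 comparisons or in the interaction.

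By Pearson's r of log2(FPKM + 1) over the 14 libraries of the H19DMD table, among 5910 genes, those most like Cdkn1c were Ahnak (0.993), Col6a3 (0.993) and Lama2 (0.993). The libraries fall into 2 fractions that set most of this likeness, and after subtraction of the group means r was 0.715, 0.631 and 0.647. For Cd81 the 3 were Sfxn3 (0.928), Camk1 (0.916) and Creb3l2 (0.888), and for Nap1l4 they were Ankmy2 (0.795), Nap1l1 (0.781), its own paralog, and Kpna4 (0.748). These values are descriptions and share library and depth.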

How the data were processed

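Per the labels' protocols, pancreata were dissociated, sorted into YFP-positive and YFP-negative cells, and RNA was amplified, made into libraries with Ovation kits and sequenced as single reads. The authors deposited 1 table of FPKM values per model. The submitters' processing notes name TopHat2 2.0.8, Cufflinks 2.2.1 and GRCm38; their parameters, annotation and use of strand are not given in the sources used here. Absolute depth is unknown and values carry no counting interval. An exact 0 is reported as listed at 0, since it can be a failed estimate.

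Libraries were grouped by their labels, and gene positions were taken from GENCODE M21. Genes whose mean reached 1 FPKM over the libraries compared were fitted with limma 3.58.1 in R 4.3.3 (lmFit, eBayes with a variance trend, two-sided) on log2(FPKM + 1), a scale that understates changes of low genes. The Benjamini-Hochberg method was applied over all genes tested, at 0.05. Fits held only the groups compared. Two-sided exact permutation tests used all relabellings, and 4 against 3 libraries cannot go below 0.0286. The script was tested on simulated data.

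All 9 members were to be named, Igf2 and H19 as label checks, and from each list every gene called plus the 3 with the highest mean. Marker lists of 9 cell types were summed. The alternatives were a pseudocount of 0.1, no filter, median-ratio scaling, a replicate block, no variance trend and leaving out each library, with a minimum transcript length of 200 nt added after seeing the data. Members and lists were chosen with earlier results of these data known.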

Additional observations from a re-analysis of the deposited data

Results flagged for a closer look

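Among 23 pairs of a member and a group of 4 libraries with values that differed, 4 had 1 library that stood far from the others of its group. Chance gives about 1 in 20 for values without ties. In 3 of the 4 a single value above 0 stood among values of 0, so that the gap was the whole range and this rate does not apply. Slc22a18 was at 3.24 FPKM in mesenchymal H19DMD mutant 1 and listed at 0 in the other 3. Ascl2 was at 0.178 FPKM in mesenchymal H19DMD mutant 3 and at 0 in the others. Phlda2 was at 0.765 FPKM in non-mesenchymal H19DMD mutant 3, with the others at 0. Phlda2 was also highest in non-mesenchymal control 3 of the Igf2 model, at 2.2 FPKM. In all 4 cases at least 2 libraries of the group were listed at 0.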

How the results depend on the processing

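Over 1109 recomputed differences of single genes, 994 kept direction and side of the threshold, 66 lost the call and 49 changed sign, none of the last from a called difference. Sign changes were, with median-ratio scaling, Nap1l4 at 0.041 (mesenchymal mutant against control), 0.015 (Igf2 model), −0.10 (fractions in controls) and 0.017 (interaction), Tssc4 at −0.060 (fractions in controls) and Kcnq1 at 0.040 (interaction). A pseudocount of 0.1 gave Kcnq1 0.52 and Slc22a18 −1.14 in the interaction. Same-numbered libraries correlated between −0.05 and 0.07, and between 0.0074 and 0.067 across the fractions of a genotype. Values this small cannot tell whether the replicate numbers pair the libraries. A replicate block gave Nap1l4 0.0080 (mesenchymal mutant), −0.035 (non-mesenchymal H19DMD), 0.014 (Igf2 model) and 0.043 (interaction). It gave Cdkn1c 0.019 (Igf2 model), and Kcnq1 0.14 and Slc22a18 0.21 (interaction). It gave 17 calls in the Igf2 model and 4 in the interaction, and among members it lost only the call of Slc22a18 between fractions in mutants. The cause was not tested.

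Leaving out 1 library in turn gave −0.12 to 0.021 for Nap1l4 and −0.40 to 0.017 for Cd81 in mesenchymal mutants, where Tssc4 was at −0.40 to −0.059. It gave −0.035 to 0.14 for Nap1l4, −0.051 to 0.44 for Cd81, −0.45 to 0.13 for Slc22a18 and 0.022 to 0.54 for Tssc4 in non-mesenchymal cells of the H19DMD model. In the Igf2 model it gave −0.086 to 0.041 for Nap1l4, −0.13 to 0.20 for Cd81, −0.34 to 0.25 for Cdkn1c and −0.44 to 0.50 for Tssc4. Between fractions it gave −0.028 to 0.10 (controls) and −0.16 to 0.020 (mutants) for Nap1l4 and −0.12 to 0.40 (controls) and −0.47 to −0.25 (mutants) for Tssc4, and 0.49 to 1.07 for Cd81 (controls). In the interaction it gave −0.20 to 0.27 for Kcnq1, −0.70 to 0.23 for Slc22a18, −0.68 to −0.10 for Cd81 and −0.77 to −0.25 for Tssc4.

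Of 15856, 16239 and 17441 genes, 11 were called in each of the mesenchymal, non-mesenchymal and Igf2 model comparisons, and 2 in the interaction. Leaving out 1 library gave 13 to 27, 14 to 34, 14 to 37 and 2 to 9 calls. Only features of at least 200 nt, a choice made after seeing the data, left 1, 0, 0 and 0. The interaction gave 6 calls with a pseudocount of 0.1 and 6 without a filter. In none of these settings was a member called between genotypes. Unknown depth limits the genes near 0.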
